A study of Homo sapiens with 2 samples.

Results

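Unmethylated CpG island promoters of autosomal genes were described in SH-SY5Y cells treated with Mdivi-1 and in SH-SY5Y cells given DMSO. A promoter consisted of the CpG positions that the deposited annotation places both in a CpG island and in the promoter of 1 gene on 1 chromosome, with at least 10 reads in both libraries and at least 5 such positions. Its level was the mean over these positions of the deposited fractions of both libraries, and promoters under 10% were kept. The promoters were thus chosen by their measured methylation. By this rule 9700 of 12498 measured island promoters (77.6%) were unmethylated, 1412 lay at 10 to 50% and 1386 at 50% and above. Their low level in both libraries is therefore a description and not a result. Where a gene had CpGs in more than 1 island, these were averaged as 1 promoter, as at 186 of the unmethylated promoters.

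SH-SY5Y is an established human neuroblastoma line, a subclone of a line grown from a metastasis, with properties of sympathetic neurons. Mdivi-1 is a compound described as an inhibitor of DRP1, the GTPase encoded by DNM1L that divides mitochondria, and the control cells received DMSO, a common solvent. The labels state neither dose nor time of exposure. Each group consisted of 1 bisulfite-converted methyl-capture library, 2 in total, which leaves the differences between them without any replicate check. Intervals cover the counting of reads only. Read counts of a window or promoter are sums over its CpGs, so a read that spans several CpGs is counted at each. Reads may also share a PCR origin and are then not independent molecules.

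CpG islands are stretches of DNA rich in C and G in which CpG dinucleotides have not been lost over evolution, and they hold the start sites of most housekeeping genes and of many developmental regulators. DNA methyltransferases add a methyl group to the cytosine of CpGs through most of the genome, whereas most islands stay free of it. Proteins with a CXXC domain bind unmethylated CpGs there, and TET enzymes oxidise methylated cytosine. A promoter whose island is methylated is usually silent, while an unmethylated island is compatible with either activity or silence, Polycomb complexes holding many such promoters inactive.

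Promoter sequences from RefSeq (GRCh38.p14, 250 bases before to 50 after the gene's start, read along the gene) are given as examples. The first 4 are unmethylated promoters from the DNA replication, ribosome and mitochondrial fission lists and from the promoters of lowest level. These 4 were picked to differ in CpG density or motifs. The fifth is a methylated island promoter of a germline gene, set beside them for contrast after its level was seen. Capitals mark the CpGs that could be placed among the measured positions by their spacing, and CpGs in lower case were not placed. The deposited coordinates are hg19 and were not converted.

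MCM7 (chr7:100101348-100101647, minus strand): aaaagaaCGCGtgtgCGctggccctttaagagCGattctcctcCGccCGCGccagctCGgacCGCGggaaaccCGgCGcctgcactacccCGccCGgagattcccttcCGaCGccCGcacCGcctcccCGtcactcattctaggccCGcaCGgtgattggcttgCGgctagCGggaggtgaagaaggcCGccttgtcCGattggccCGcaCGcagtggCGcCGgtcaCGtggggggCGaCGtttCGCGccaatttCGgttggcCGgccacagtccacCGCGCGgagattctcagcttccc

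RPL28 (chr19:55385682-55385981, plus strand): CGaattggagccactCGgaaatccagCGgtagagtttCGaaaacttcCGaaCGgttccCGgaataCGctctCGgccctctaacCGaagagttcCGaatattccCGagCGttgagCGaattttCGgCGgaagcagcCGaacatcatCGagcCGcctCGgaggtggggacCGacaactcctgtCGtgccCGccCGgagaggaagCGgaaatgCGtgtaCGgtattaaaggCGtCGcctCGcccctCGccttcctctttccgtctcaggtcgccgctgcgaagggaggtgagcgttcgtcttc

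MTFR1L (chr1:25819704-25820003, plus strand): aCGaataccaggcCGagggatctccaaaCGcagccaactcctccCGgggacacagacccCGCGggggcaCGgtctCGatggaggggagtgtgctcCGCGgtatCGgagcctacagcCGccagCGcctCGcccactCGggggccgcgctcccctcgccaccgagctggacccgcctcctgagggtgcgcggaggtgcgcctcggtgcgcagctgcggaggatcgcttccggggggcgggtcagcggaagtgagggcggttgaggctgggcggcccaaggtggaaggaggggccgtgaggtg

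CNKSR3 (chr6:154510636-154510935, minus strand): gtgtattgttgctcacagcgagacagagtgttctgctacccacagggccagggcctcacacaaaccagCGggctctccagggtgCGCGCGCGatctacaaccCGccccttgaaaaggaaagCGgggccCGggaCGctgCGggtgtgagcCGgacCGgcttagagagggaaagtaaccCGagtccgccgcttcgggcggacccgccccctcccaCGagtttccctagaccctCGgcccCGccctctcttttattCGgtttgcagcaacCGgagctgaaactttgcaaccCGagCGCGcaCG

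SYCP3 (chr12:101739413-101739712, minus strand): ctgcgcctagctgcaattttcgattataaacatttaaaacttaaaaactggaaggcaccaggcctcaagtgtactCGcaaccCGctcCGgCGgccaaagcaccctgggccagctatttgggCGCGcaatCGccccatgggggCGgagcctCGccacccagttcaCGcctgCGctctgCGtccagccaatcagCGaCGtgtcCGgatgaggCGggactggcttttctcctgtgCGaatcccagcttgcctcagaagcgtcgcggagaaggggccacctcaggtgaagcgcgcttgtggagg

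MCM7 encodes a subunit of the replicative helicase, and all 39 CpGs of its window were placed. They carried 36 methylated of 2427 reads in the Mdivi-1 library and 21 of 2180 reads in the control, and no single CpG passed 5.88% in Mdivi-1 or 4.26% in control. RPL28 encodes a protein of the large ribosomal subunit, and 31 of its 37 window CpGs were placed, with 24 methylated of 2540 reads in Mdivi-1 and 20 of 2182 in control. These windows thus held about 1 methylated read per 100 in both libraries, spread over the CpGs rather than gathered at a few.

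MTFR1L, a regulator of mitochondrial fission, had 15 of 33 window CpGs placed, with 6 methylated of 372 reads in Mdivi-1 and 5 of 449 in control. CNKSR3, a scaffold protein of signalling kinases and among the promoters of lowest level, had 22 of 28 placed, and 15 of these had no methylated read in either library. SYCP3, a protein of the synaptonemal complex of meiosis, had 17 of 24 window CpGs placed, with 498 methylated of 518 reads in Mdivi-1 and 487 of 506 in control. Its window holds CpGs at 0.880 of the number that its C and G content predicts, between the 0.852 of MTFR1L and the 0.916 of CNKSR3 and below the 1.15 of MCM7 and the 1.40 of RPL28.

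The level of the unmethylated promoters was near 1% in both libraries. Over the 9700 promoters the median was 1.28% in Mdivi-1 (quartiles 0.988 and 1.70%) and 1.25% in control (quartiles 0.939 and 1.71%), computed from whole reads. Of these, 8408 (86.7%) lay under 2% and 1292 (13.3%) at 2 to 10%. The 10 to 50% promoters had medians of 27.8% in Mdivi-1 and 27.8% in control, and those at 50% and above had 80.4% and 80.2%. No conversion rate was stated, so at levels near 1% methylated cytosine, unconverted cytosine and sequencing error cannot be told apart.

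**Figure D1:**
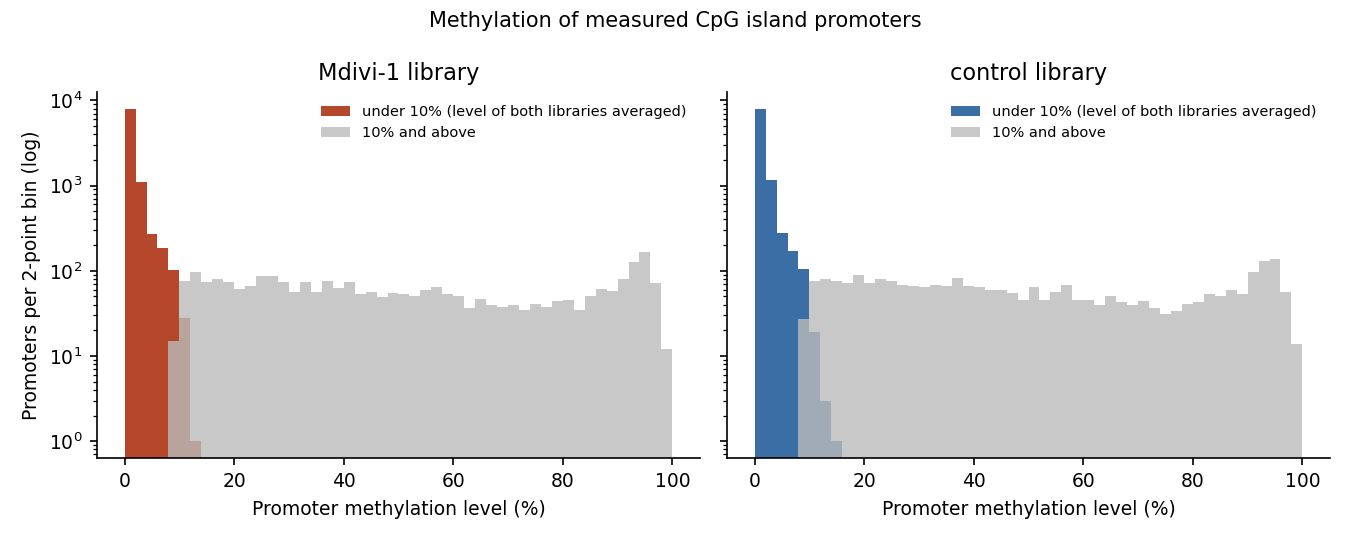
Methylation level of the 12498 measured CpG island promoters in the Mdivi-1 library (left) and the control library (right), in 2-point bins on a log count axis; coloured bars are the 9700 promoters whose level averaged over both libraries was under 10%, grey bars the others. Most promoters stand in the lowest bin in both libraries, with a second, smaller rise near 95%.

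The unmethylated promoters comprised 267721 measured CpG positions, of which 267080 had whole reads, with 12120555 reads in Mdivi-1 and 9957333 in control. Of these positions, 59.2% had no methylated read in Mdivi-1 and 64.7% in control, and 42.4% had none in either. Depth differed between the libraries. At an equal 10 reads per position the share with no methylated read was 86.2% in Mdivi-1 and 86.4% in control.

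Across the 9700 unmethylated promoters, Spearman's rho between the libraries was 0.35 and Pearson's r was 0.79. Across the 8408 promoters under 2%, Spearman's rho between the 2 libraries was 0.07, and across the 1489 of these with at least 50 CpGs it was 0.26. Across the 1292 promoters at 2 to 10% it was 0.64. Both ranges were chosen on the average of the same libraries, which narrows the levels within each and by itself lowers rho, so the values do not compare how well the ranges are measured. These are descriptions over promoters of the same 2 libraries, many of which share CpGs, since 3186 of the 9700 promoters held a position that another also held and 341 shared an identical set.

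Among the promoters with most CpGs, TGIF1, a homeobox repressor of TGF-beta signalling, had 222 positions over chromosome 18, 3448008 to 3452360 (hg19). Its level was 1.30% in Mdivi-1 and 1.17% in control. ZNF503-AS2, a long noncoding RNA gene, had 232 positions at 2.28% in Mdivi-1 and 2.55% in control. SPHK1, which makes sphingosine 1-phosphate, had 211 positions at 2.995% in Mdivi-1 and 2.94% in control. ISLR2, a neuronal membrane protein, had 193 at 4.23% in Mdivi-1 and 4.06% in control, and TIPARP, a mono-ADP-ribosyltransferase, 173 at 1.91% in Mdivi-1 and 1.53% in control. All 5 differed by under 0.4 points between libraries.

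Among promoters with at least 50 CpGs the lowest was PDE8A, a cyclic AMP phosphodiesterase, with 12 methylated of 2155 reads in Mdivi-1 (0.557%, 95% exact binomial interval 0.288 to 0.971%) and 14 of 2139 in control (0.655%, interval 0.358 to 1.10%). CNKSR3 had 9 of 1131 reads in Mdivi-1 and 6 of 1061 in control. ZMYM5, POLH and LOC101928617 completed the 5 lowest, with mean levels of 0.501 to 0.775% in Mdivi-1 and 0.619 to 1.01% in control. POLH encodes the DNA polymerase that copies past ultraviolet damage. The intervals of the libraries overlapped at each of these 5.

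At the limit of the rule the classes ran into each other without a gap. The promoters just inside were RAPGEFL1 at 9.97% and CELSR1 at 9.94% in the level used for the choice, and those just outside were NOC4L at 10.04%, TP53I11 at 10.08% and LOC401176 at 10.10%.

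By annotated place in the gene the mean levels were all low, which follows in part from the choice of these promoters. Mean levels were 1.76% in Mdivi-1 and 1.74% in control over 118350 positions upstream of genes, and 1.48% and 1.42% over 36657 positions in 5' untranslated exons. Intronic positions had 1.86% in Mdivi-1 and 1.82% in control. The 4728 positions annotated as intergenic were highest, at 2.77% in Mdivi-1 and 2.65% in control.

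Protein-coding genes, matched by name to RefSeq, gave 8296 of the unmethylated promoters, 79.96% of the 10375 such island promoters measured. Long noncoding RNA genes were unmethylated at 718 of 1089 (65.9%), microRNA genes at 164 of 268 (61.2%) and snoRNA genes at 77 of 81 (95.1%). Pseudogenes not marked as transcribed had the lowest share of the larger types, 51 of 131 (38.9%). By chromosome the share ran between 70.8% on chromosome 20 and 82.1% on chromosome 12.

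The comparison of Mdivi-1 with control asked whether treatment was accompanied by a change of methylation at these promoters. On whole reads their median difference, Mdivi-1 minus control, was 0.03 percentage points, with 5071 promoters higher, 4592 lower and 37 equal. The medians of the other classes were 0.31 points at 10 to 50% and 0.51 points at 50% and above. The quartiles of the unmethylated promoters lay at -0.37 and 0.44 points, and 82.5% were within 1 point, against 32.9% of promoters at 10 to 50% and 30.6% at 50% and above. Promoters chosen for levels near 0 have a smaller counting spread and less room to differ, so these shares follow in part from the choice.

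The size of this difference depended on how the control fraction was written. In the authors' deposited table the control fractions are whole reads only once coverage is scaled by 1.23, which equals 37 reads (the median coverage in Mdivi-1) over 30 reads (that in control). At 30 control reads, 1 methylated read (3.33%) was deposited as 2.70%, and 2 (6.67%) as 5.41%. Positions with 1 or 2 methylated control reads made up 31.1% of those in unmethylated promoters. With the deposited fractions the median control level was 1.05% in place of 1.25%, the Mdivi-1 level stayed at 1.28%, and the median difference became 0.22 points with 6409 promoters higher and 3257 lower. Most of the excess of higher promoters in the deposited fractions was thus absent on whole reads.

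**Figure D2:**
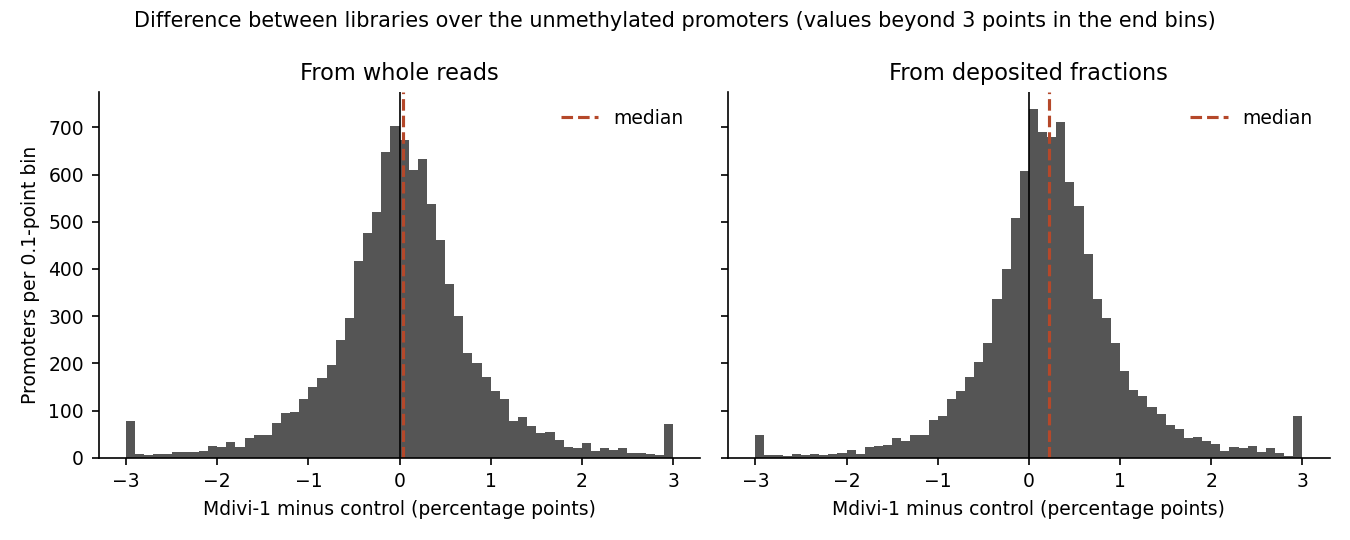
Difference in methylation, Mdivi-1 minus control, over the 9700 unmethylated island promoters in 0.1-point bins, from whole reads (left) and from the deposited fractions (right); the dashed line is the median, and values beyond 3 points are in the end bins. The whole-read distribution is centred near 0 (median 0.03 points), and the deposited one near 0.22 points.

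Large differences were rare at these promoters. The rule of size asked for a mean difference of at least 5 points with at least 80% of the differing CpGs in its direction. It was met by 7 unmethylated promoters higher in Mdivi-1, against a background of 0.968% of all 12498 island promoters (121), and by 7 lower, against a background of 0.648% (81). Choosing promoters under 10% in the average of both libraries limits the difference in either direction, so these shares are not a test. Of the unmethylated promoters, 674 (6.95%) had a 95% counting interval of the difference that left out 0 when CpGs are taken as independent, and 0 did when all CpGs of a promoter are taken to share the same reads. Over all 12498 island promoters these counts were 1293 (10.3%) and 2. Taking all CpGs to share the same reads is an extreme case, in which low levels leave an interval little room to exclude 0.

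The highest gain was at ORAI2, a subunit of store-operated calcium channels, at 11.4% in Mdivi-1 and 0% in control over 6 CpGs. Summed over these CpGs there were 9 methylated of 76 reads against 0 of 61, which allows up to 5.87% in the control (95% exact binomial interval). Each position had 12 to 14 reads in Mdivi-1 and 10 to 11 in control, so the same reads may be counted at several CpGs. RBFOX1, a neuronal splicing regulator, had 33 methylated of 473 reads in Mdivi-1 and 10 of 469 in control over 18 CpGs, 15 of them higher and 1 lower. KIAA1217 had 70 of 785 in Mdivi-1 (8.92%, interval 7.02 to 11.1%) and 18 of 611 in control (2.95%, interval 1.76 to 4.62%). Its 21 CpGs, on chromosome 10 between 23982384 and 23982589 and annotated as intergenic, were higher at 18 and lower at 2.

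COQ3, a methyltransferase of coenzyme Q synthesis in mitochondria, had 10 of 124 reads in Mdivi-1 and 3 of 161 in control. SCMH1, a Polycomb-associated protein, had 40 of 395 and 23 of 354, ACSL6, a long-chain acyl-CoA synthetase, 12 of 143 and 2 of 91, and ARPC1B, a subunit of the Arp2/3 actin nucleator, 11 of 203 and 1 of 152, each with Mdivi-1 before control. The intervals of SCMH1, ACSL6, ARPC1B, COQ3 and ORAI2 overlapped between the libraries, and those of RBFOX1 and KIAA1217 did not. These intervals treat the counts at all CpGs as independent. With all CpGs of a promoter taken to share the same reads, the interval of the difference included 0 at RBFOX1 and KIAA1217 too. That extreme case could hardly exclude 0 at such levels, and the CpGs of RBFOX1 span 489 bp.

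The largest loss was at LYSMD4, with 1 methylated of 122 reads in Mdivi-1 and 19 of 150 in control over 9 CpGs. CLINT1, a clathrin adaptor of the endosome, had 0 of 94 reads in Mdivi-1, which allows up to 3.85%, and 6 of 56 in control (interval 4.04 to 21.9%) over 5 CpGs. NHLRC4 had 1 of 94 in Mdivi-1 and 8 of 95 in control. These 3 promoters had few reads, with single positions covered 10 to 21 times.

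Among the smaller losses, SERHL2, which has a close copy in SERHL so that reads may be mixed, had 0 of 84 reads methylated in Mdivi-1 and 5 of 73 in control, and ZBED3 had 3 of 168 in Mdivi-1 and 14 of 188 in control. ZNF552, a KRAB zinc finger gene, had 5 of 290 in Mdivi-1 and 17 of 231 in control over 6 CpGs. CAMKV, a kinase-like protein of neuronal vesicles, had 2 of 136 in Mdivi-1 and 7 of 111 in control. Of the 14 promoters past the rule, 10 had at most 10 CpGs, and none of the losses had more.

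**Figure D3:**
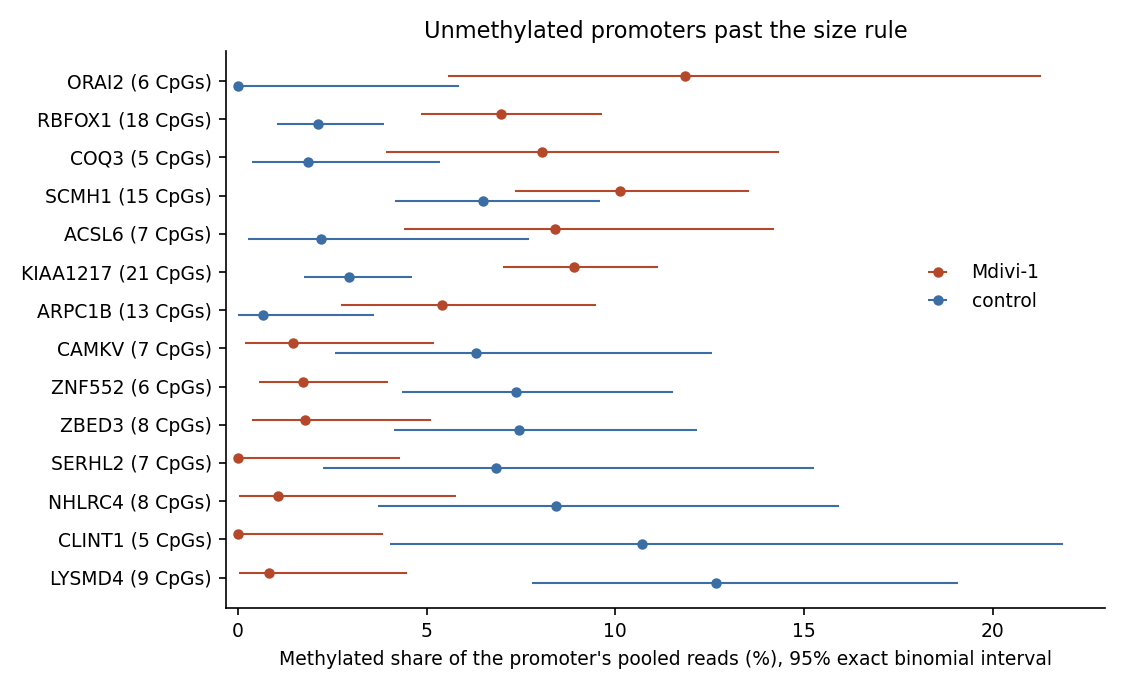
Methylated share of the pooled reads of the 14 unmethylated promoters past the rule of size, Mdivi-1 in red above control in blue, with 95% exact binomial intervals that treat the counts at all CpGs as independent. The intervals of several promoters overlap, and those of KIAA1217, RBFOX1, ZNF552, CLINT1 and LYSMD4 do not. When all CpGs of a promoter are taken to share the same reads, the 95% interval of the difference includes 0 at each of the 14. This extreme case leaves little room to exclude 0 at such levels.

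No single CpG of an unmethylated promoter was called. Each of 2523693 CpGs was given a Fisher exact test, two-sided, and p-values were adjusted by Benjamini and Hochberg over all of them. These tests compare the reads of these libraries and not the conditions. In unmethylated promoters 0 of 267080 positions had an adjusted p under 0.05 and a difference of at least 20 points, against 0.000634% of all CpGs tested (16, of which 10 were higher in Mdivi-1). At an unadjusted p under 0.05 there were 698 positions (0.261%, against 2.02% of all), 223 higher and 475 lower in Mdivi-1. Median coverage per position was 36 reads in Mdivi-1 and 30 in control, and the part of this gap in the uneven split was not tested. Most positions of these promoters had no methylated read, 59.2% in Mdivi-1 and 64.7% in control. Such positions leave little room for a 20-point difference or a small p. The low counts therefore follow in part from the choice and do not show that these promoters are stable.

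The following positions were chosen after their values were seen. The smallest p in these promoters, 0.000213 by the exact Fisher test (adjusted p 1), was at chromosome 1, 156390536, in the promoter of the microRNA gene MIR9-1. It had 2 methylated of 95 reads in Mdivi-1 and 18 of 99 in control. The next, at the promoter shared by HSPA6, an inducible heat shock protein, and a glycine tRNA gene, had 15 of 213 in Mdivi-1 and 0 of 161 in control.

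Some unmethylated promoters contained CpGs that were methylated in both libraries. Positions at 50% or more in both numbered 262 (0.0981%) in 126 promoters, 64 of which held just 1. Their mean was 71.8% in Mdivi-1 and 70.1% in control, and their coverage was a median of 34 reads in Mdivi-1 and 27 in control. Counted per promoter, 79.6% of them stood among the outermost 20% of its CpGs, 10% at either end. None of these promoters had a level under 2%.

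CPD, a carboxypeptidase of the secretory pathway, held 12 such positions, all between 28705365 and 28705465 on chromosome 17 and annotated as upstream. They averaged 73.1% in Mdivi-1 and 77.9% in control, while its other positions averaged 3.42% and 2.66%. ZEB1, a repressor of epithelial genes, held 9 at 85.9% in Mdivi-1 and 76.1% in control, against 1.97% and 2.20% for the rest. SOCS2, a feedback inhibitor of cytokine signalling, held 9 at 86.1% in Mdivi-1 and 87.3% in control, with 2.17% and 2.37% elsewhere. In these 3 promoters all such positions lay among the outermost 20% of the measured CpGs.

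ZBTB7C, whose CpGs came from 2 islands, held 7 methylated positions. MEPCE, which caps the 7SK RNA, held 5 neighbouring ones within chromosome 7, 100025806 to 100025837, at 92.6% in Mdivi-1 and 91.7% in control beside 1.36% and 1.52% for its other CpGs. The change between nearly full and nearly no methylation at MEPCE thus fell at the end of the measured CpGs in both libraries.

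CpGs that the rule did not use showed where the unmethylated state ended. In shores, the flanks of islands, CpGs annotated to the same promoters averaged 27.3% in Mdivi-1 and 27.0% in control. Of 7993 genes with at least 5 shore CpGs, 2752 (34.4%) were under 10% in both libraries. Shores of the 10 to 50% promoters averaged 43.6% in Mdivi-1 and 43.2% in control, and those of the promoters at 50% and above averaged 58.5% and 57.9%. The shore followed the island's class in order but was far less separated than the island itself.

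Gene bodies went the other way. Exonic CpGs outside islands averaged 81.8% in Mdivi-1 and 81.0% in control for genes of unmethylated promoters, against 64.6% and 64.0% for the 10 to 50% promoters and 67.5% and 66.9% for those at 50% and above. Intronic CpGs averaged 67.5% in Mdivi-1 and 66.7% in control, against 48.0% and 47.4% and against 55.8% and 55.2%. CpGs of 3' untranslated exons averaged 80.3% in Mdivi-1 and 79.4% in control, against 56.3% and 55.5% and against 64.0% and 63.2%. Genes whose island promoter was unmethylated thus had the highest body methylation of the 3 classes at each of these places, in both libraries. Body CpGs lay outside promoters and islands but could lie in island shores, whose share in each class was not compared.

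In the bodies of these genes the Mdivi-1 library was higher by 0.72 points over exonic and 0.76 points over intronic CpGs, with 2280 of 3504 genes higher and 1224 lower in exons. The other classes differed by 0.59 and 0.58 points in exons, and the difference between classes was not tested. Methylation over shores of unmethylated promoters was 0.32 points higher in Mdivi-1.

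Among promoters with the highest shores, TAF8, a subunit of the transcription factor TFIID, had 25 shore CpGs at 95.2% in Mdivi-1 and 93.7% in control beside an island at 2.51% and 2.81%. TMEM44-AS1, TLE4, a Groucho-family corepressor, and USP18, which removes ISG15, had shores at 93.5 to 95.1% in Mdivi-1 and 92.9 to 93.9% in control. Among the highest bodies, RSF1, a chromatin remodelling factor, had 38 CpGs at 96.3% in Mdivi-1 and 95.5% in control beside a promoter at 0.886% and 1.28%. FOXO3B had a body at 97.5% in Mdivi-1 and 97.2% in control, but its sequence is close to that of FOXO3 and reads of the copies may be mixed. NMRAL1 and the splicing factor SRSF5 followed, at 96.1% and 96.5% in Mdivi-1 and at 95.6% and 95.1% in control.

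The width of the unmethylated zone was read at 1170 unmethylated promoters where the annotation switches once between upstream and a first exon. The mean level was 60.3% in Mdivi-1 and 60.1% in control at 1000 to 900 bp before the switch, 26.6% and 26.1% at 500 to 400 bp before, and 3.11% and 3.20% in the last 100 bp. It was lowest at 100 to 200 bp after the switch, 2.46% in Mdivi-1 and 2.45% in control. It returned to 18.4% in Mdivi-1 and 18.1% in control at 1000 to 1100 bp after, and to 52.5% and 52.1% at 1900 to 2000 bp after. Each bin holds only the promoters with measured CpGs in it, 354 at 1000 to 900 bp before and 393 at 1000 to 1100 bp after. In these means, over partly different promoters, the unmethylated zone reached further into the gene than before it.

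**Figure D4:**
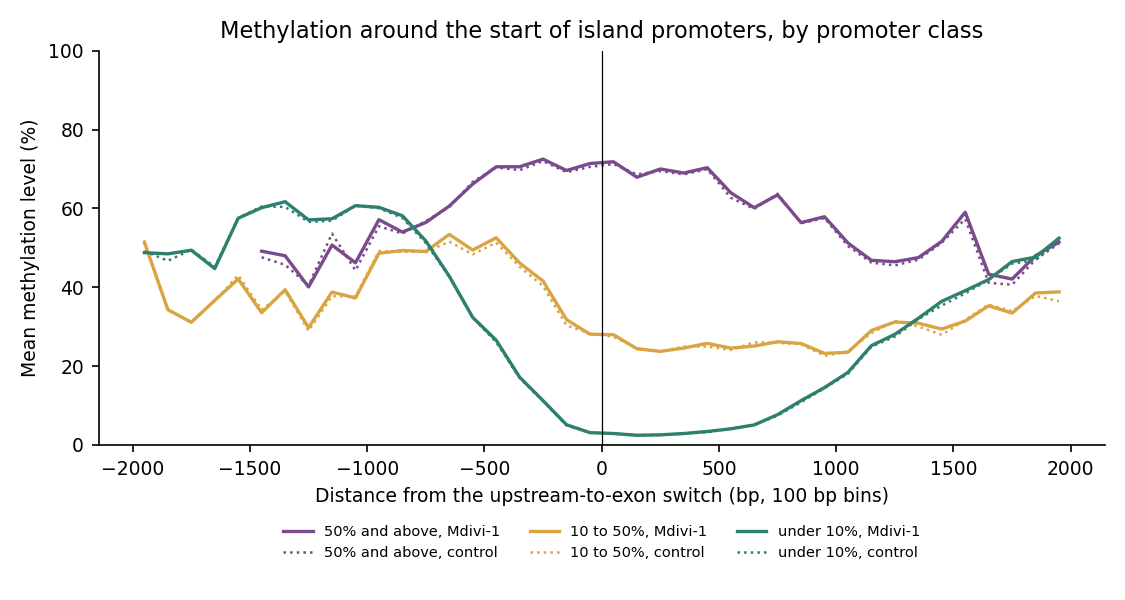
Mean methylation level of CpGs in 100 bp bins by distance from the annotated switch between upstream sequence and first exon, for 1170 unmethylated promoters, 140 at 10 to 50% and 99 at 50% and above; solid lines are Mdivi-1 and dotted lines control, and bins with under 10 promoters are not drawn. Unmethylated promoters dip to 2.46% in Mdivi-1 just after the switch, and the lines of the libraries nearly coincide.

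Gene lists differed widely in how many of their island promoters were unmethylated, beside 77.6% over all measured. Housekeeping machinery stood above that share. Of cytosolic ribosomal protein genes 60 of 61 were unmethylated, of proteasome subunits 29 of 29, of RNA polymerase II subunits and general transcription factors 30 of 31, and of DNA replication genes 33 of 34. RPL31 was the ribosomal exception, at 25.6% in Mdivi-1 and 25.7% in control. RFC1, of the replication clamp loader, stood at 16.7% in Mdivi-1 and 18.1% in control, and TAF12, of TFIID, at 9.90% and 10.5%. PSMA1, of the proteasome core, stood at 1.34% in Mdivi-1 and 0.947% in control over 126 CpGs of 2 islands, and POLR2I, of the polymerase, at 1.28% and 1.29%. MCM4, of the replicative helicase, stood at 1.21% in Mdivi-1 and 1.29% in control.

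Mitochondrial genes were largely unmethylated too. All 21 measured promoters of the fission and fusion machinery were, with medians of 1.24% in Mdivi-1 and 1.11% in control. Those with most CpGs were MTFR1L, at 1.411% in Mdivi-1 and 1.505% in control, and SPIRE1, an actin nucleator, at 1.70% and 1.76%. The next 4 genes are named for their roles, after their values were seen. FIS1 and MFF, outer membrane receptors for the fission GTPase, stood at 1.89% and 1.43% in Mdivi-1 and at 0.902% and 1.16% in control. MFN2 and OPA1, the fusion GTPases of the outer and inner membrane, stood at 1.47% and 1.21% in Mdivi-1 and at 1.80% and 0.792% in control. Over the list 12 promoters were higher and 9 lower in Mdivi-1, and none met the rule of size.

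DNM1L itself was not measured by the rule. It had 4 island CpGs where the rule asks for 5, and its control reads were also too few. Its 4 island CpGs had 0 methylated of 54 reads in Mdivi-1 and 0 of 24 in control, with under 10 control reads at each. Of its 12 shore CpGs, 10 averaged 2.86% in Mdivi-1 and 4.25% in control, and the other 2 were at 98.0% and 95.7%.

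Respiratory complex I had 28 of 31 measured promoters unmethylated, with medians of 1.21% in Mdivi-1 and 1.03% in control, 20 higher and 8 lower. NDUFA11 and NDUFB1 had most CpGs of these, at 0.949% and 1.44% in Mdivi-1 and at 1.15% and 1.25% in control. NDUFA13 was methylated, at 77.9% in Mdivi-1 and 78.2% in control over 177 CpGs. NDUFS6 stood at 47.8% in Mdivi-1 and 47.3% in control. Stress response genes were unmethylated at 29 of 32. HSP90AB1, a cytosolic chaperone, stood at 1.41% in Mdivi-1 and 1.45% in control, and its fellow chaperone DNAJB1 at 1.14% and 1.04% over 2 islands. ERN1, a sensor of unfolded protein in the endoplasmic reticulum, stood at 27.9% in Mdivi-1 and 29.4% in control, and ATF3, a stress-induced factor, at 12.03% and 12.6%. HSPA1A stood at 40.5% in Mdivi-1 and 44.2% in control whereas its near-identical neighbour HSPA1B was unmethylated, and reads of such copies may be assigned to either.

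Lineage genes of sympathetic neuroblasts were unmethylated at 12 of 15 measured promoters (80%), near the 77.6% of all measured island promoters. GATA2, a lineage transcription factor, had 172 CpGs at 1.30% in Mdivi-1 and 1.55% in control. TBX2, a T-box factor, had 141 CpGs at 1.71% in Mdivi-1 and 1.98% in control. ELAVL4, a neuronal RNA-binding protein, was at 93.4% in Mdivi-1 and 88.6% in control over 8 CpGs, and INSM1 at close to 78% in both. RET was at 13.5% in Mdivi-1 and 13.2% in control, averaged over 2 islands. TH and DBH were not measured by the rule. Of 5 measured promoters of markers of other cell types, among them CDH1 and MYOD1, none was unmethylated. Promoter methylation does not measure expression, and these counts do not check the cell label.

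Developmental regulators of other lineages stood below the common share, with 12 of 41 unmethylated, 22 at 10 to 50% and 7 at 50% and above. TLX3 and NKX6-1, homeobox factors of neurons, were among the unmethylated, at 2.20% and 2.32% in Mdivi-1 and at 2.12% and 1.63% in control. GATA4, a heart and gut factor, was the most methylated at 96.5% in Mdivi-1 and 96.8% in control. Its value rests on 10 CpGs within 134 bp of an island of 1995 bp. TBX20 and HOXA9 followed. Promoters often methylated in tumours were unmethylated at 14 of 31. CDKN2A, a cell cycle inhibitor gene, was at 4.23% in Mdivi-1 and 4.62% in control, averaged over 2 islands spread across 20967 bp. TP73, ZMYND10 and DLEC1 were the most methylated of that list, at 86.9 to 95.9% in Mdivi-1 and 88.1 to 94.1% in control. The value of TP73 is also an average over 2 islands, across 40025 bp.

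Germline genes, known to be methylated in somatic cells, had the lowest share among lists of over 5 measured promoters, with 2 of 28. The 2 were TDRKH, a piRNA pathway protein, at 1.29% in Mdivi-1 and 1.38% in control, and NANOS3, a germ cell RNA regulator, at 2.46% and 2.85%. SYCP3, TDRD9 and SOHLH2 were the highest, at 94.2 to 98.2% in Mdivi-1 and 93.5 to 97.6% in control.

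CpG-binding, DNA methylation and demethylation factors were unmethylated at 11 of 14 (78.6%), near the 77.6% of all measured island promoters. KMT2B, a CXXC methyltransferase of histone H3, stood at 5.18% in Mdivi-1 and 5.82% in control, and CXXC5 at 1.07% and 1.32%. KDM2A, a histone demethylase that binds unmethylated CpGs, had the highest level of that list at 94.7% in Mdivi-1 and 95.1% in control, over 30 CpGs. UHRF2 and MBD1 were at 59.8% and 51.4% in Mdivi-1 and at 57.2% and 51.2% in control. Of Polycomb genes 17 of 21 (81.0%) were unmethylated, also near the share of all measured. Among them were PCGF2, of Polycomb complex 1, at 1.19% in Mdivi-1 and 1.04% in control, and JARID2, of complex 2, at 1.53% and 1.15%. PCGF3, CBX8 and RYBP were at 53.9 to 85.0% in Mdivi-1 and 50.03 to 84.5% in control.

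**Figure D5:**
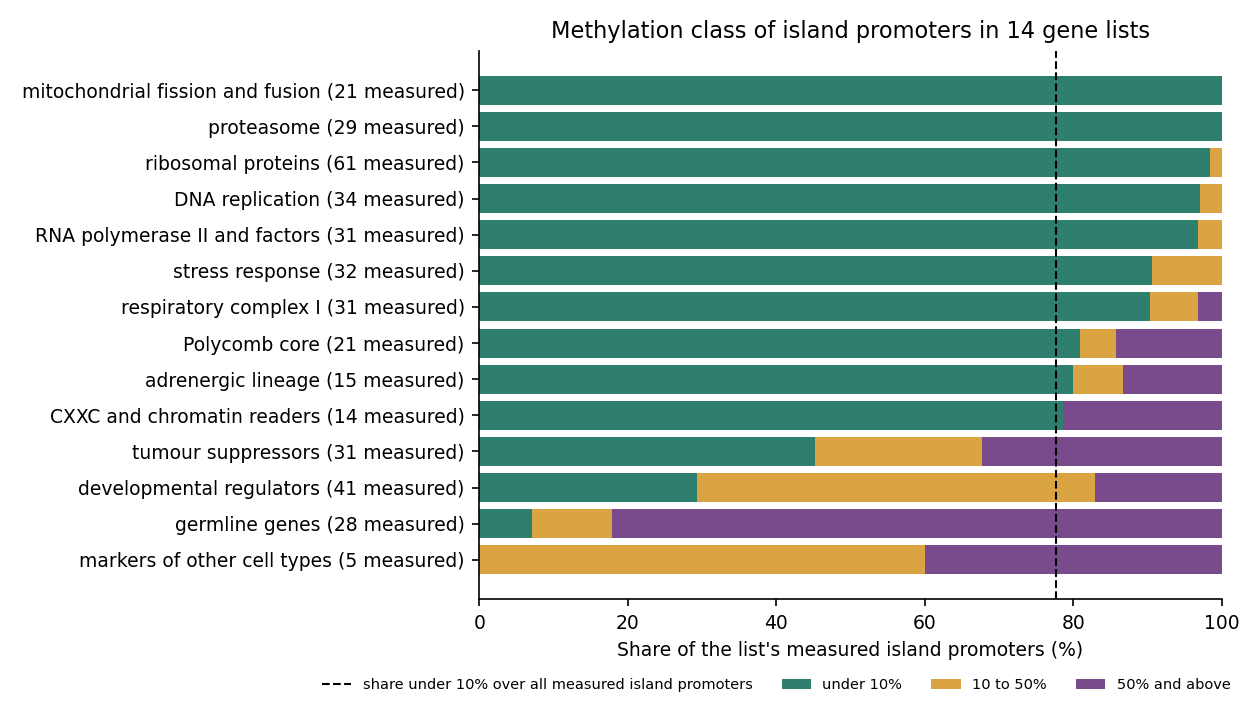
Share of the measured island promoters of 14 gene lists in each methylation class (under 10%, 10 to 50%, 50% and above); the dashed line is the 77.6% of all measured island promoters that were under 10%. Lists of housekeeping machinery lie right of the line, and the tumour suppressor, developmental, germline and other cell type lists end left of it.

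Across all lists, 298 of 394 measured entries were unmethylated, and no unmethylated promoter in a list met the rule of size. Over the 13 lists with such promoters, medians of the difference lay between -0.30 points over 14 tumour suppressor promoters and 0.16 points over 28 complex I promoters, beside 0.03 points over all unmethylated promoters.

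Sequence was compared over protein-coding genes outside chromosome 8, where 6850 of 7982 unmethylated promoters (85.8%), 911 of 1117 at 10 to 50% and 720 of 877 at 50% and above had a RefSeq window of 300 bases. The median ratio of observed to expected CpGs was 0.87 in unmethylated windows, 0.83 at 10 to 50%, 0.81 at 50% and above and 0.77 over all 15101 autosomal protein-coding windows. GC content hardly separated the island classes, at medians of 66.0%, 68.7% and 67.2%, with 63.0% over all windows. The islands themselves, per the deposited annotation, had median lengths of 813 bp in the unmethylated class, 1141 bp at 10 to 50% and 763 bp at 50% and above.

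Short motifs were searched on both strands. The letters CCGGAAG, as bound by ETS factors, were in 22.2% of unmethylated windows, against 10.2% at 10 to 50%, 9.86% at 50% and above and 14.4% over all windows. CCAAT, bound by NF-Y, was in 38.6%, against 28.4%, 27.4% and 36.0%. GCGCATGC, part of the NRF1 site, was in 6.45%, against 3.29%, 3.19% and 4.19%, and AAGATGGCG, of YY1, in 4.63%, against 2.09%, 0.417% and 2.79%. TGACGTCA, the cyclic AMP response element, was in 3.94%, against 2.96%, 1.39% and 2.65%. Among the 3 island classes each of these motifs was most frequent in the unmethylated one. The unmethylated class also came first for each of them in the windows where measured CpGs could be placed. The order of the other classes changed there for CCGGAAG, at 13.3% at 10 to 50% and 14.7% at 50% and above. There the gap for TGACGTCA was narrow, at 4.76% against 4.43% at 10 to 50% and 1.45% at 50% and above.

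The letters GGGCGG, the core of the Sp1 site, was in 73.5% of unmethylated windows, against 74.6% at 10 to 50%, 71.8% at 50% and above and 58.9% over all. The E-box CACGTG was in 10.8%, against 9.77%, 12.5% and 8.77%, and CTCGCGAG in 2.54%, against 0.878%, 1.94% and 1.54%. The TATA box letters TATAAA were in 4.599%, against 5.49%, 6.94% and 9.71%. All 9 motifs but CCAAT and TATAAA contain a CpG. In the printed windows MTFR1L holds CCGGAAG on the opposite strand at 27 to 21 bases before the start, and MCM7 holds CACGTG at 25 to 20 bases before it. A match is not evidence of binding.

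Measured CpGs were placed by spacing in 4748 of the 6850 unmethylated windows (69.3%). They were placed in 451 of 911 windows at 10 to 50% (49.5%) and 346 of 720 at 50% and above (48.1%). A window without placed CpGs is not shown to hold the CpGs that set its class, which limits the comparison of sequence between classes. In unmethylated windows 96.6% of the 85067 placed positions lay before the start, as most of each window does. Placed CpGs within CCGGAAG averaged 1.55% in Mdivi-1 and 1.41% in control over 1184 positions, those within GGGCGG 1.31% and 1.39% over 4367, and those within CACGTG 0.925% and 0.932% over 432. CpGs outside all 9 motifs averaged 1.36% in Mdivi-1 and 1.33% in control over 78096 positions. Those within TGACGTCA averaged 0.928% in Mdivi-1 and 0.737% in control over 189. All of these levels lay under 2% in both libraries.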

How the data were processed

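Methylation was measured in 1 Mdivi-1 and 1 DMSO control library of SH-SY5Y DNA, captured and bisulfite-converted. The authors aligned reads with BSMAP to hg19, per the submitters' processing notes. The deposited table gives, for 2773807 positions, the methylated fraction and the coverage of each library, with annotation. The coverage is an estimated count of reads, as deposited, since 10751 positions hold a value that is not whole. The authors' difference column was not used.

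Control fractions gave whole methylated reads at the deposited coverage for 33.3% of positions and, after scaling coverage by the ratio of medians and rounding, for 100% (tolerance 1e-06). This scaling was found in the values and is stated in no source used here. Levels were computed from the whole reads so recovered, leaving out 10795 positions (0.389%), while promoters were chosen on the deposited fractions as the rule asks. Mean coverage of tested CpGs was 49.1 reads in Mdivi-1 and 39.7 in control.

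With 1 library per group no test was made over promoters. Promoters were described by the mean over CpGs, with 95% exact binomial intervals on reads summed over CpGs. These intervals treat the counts of a read at several CpGs as independent. Single CpGs were tested with Fisher's exact test. Genes named in the text were those past the rule of size, with most CpGs, of lowest level, at the limit of the rule, with highest shores or bodies, with most methylated CpGs, and in each list some with most CpGs and the non-members of highest level. Exceptions are marked in the text. Some genes that this rule names are not reported here. The promoters and gene lists were chosen with earlier results of these data known. RefSeq windows were placed on measured positions by CpG spacing, with at least 8 CpGs matched, an approach added after the data were seen. Tests and intervals came from scipy 1.17.1 and numba 0.67.0, tables from pandas 2.3.3 with numpy 2.4.6, and plots from matplotlib 3.10.9, under Python 3.11.15. The scripts were tested on simulated data.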

Additional observations from a re-analysis of the deposited data

How the results depend on the processing

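Of 64 values under alternative settings, 35 kept within the limits set for them and 29 moved, none to the opposite sign. The number of unmethylated promoters stayed between 8468 and 9693, and the list count of 298 became 283 with a limit of 5% and 272 with 10 CpGs. With deposited fractions the median control level was 1.05% and the median difference 0.216 points. At 20 reads the Mdivi-1 level was 1.268%. Counting each CpG set once gave 1.29% in Mdivi-1 and 1.265% in control. Promoters past the rule of size, 7 higher and 7 lower in Mdivi-1, became 11 and 3 at 20 reads, 4 and 0 at 10 CpGs, 28 and 40 at 3 points, 1 and 2 at 10 points, and 15 and 12 with no demand on the share of CpGs. Deposited fractions gave 11 higher. Methylated CpGs in both libraries numbered 61 at 80%. Taken as medians over genes, exonic bodies were at 92.7% in Mdivi-1 and 91.7% in control and shores at 20.7% and 20.3%. At 20 reads exonic bodies were at 82.1% in Mdivi-1 and 81.3% in control and shores at 26.99% and 26.7%. From 100 bases before to 50 after the start, the ratio of observed to expected CpGs was 0.924 and the share with CCGGAAG 16.98%. In windows placed by spacing, an alternative chosen after seeing the data, they were 0.886 and 27.3%. No CpG was called under any of the 4 alternatives tried. The causes of these movements were not tested. No paired analysis was possible because each group holds 1 library. With 1 library a group and promoters of few CpGs, depth limits the detection of differences at single promoters.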
